A study of Mus musculus with 13 samples.

Results

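The genes described here are the cyclins, kinases and inhibitors that govern the G1 phase of the cell cycle, together with Rb1, in high-grade gliomas of mice and in control brain. They are 10 genes chosen by name: Ccnd1, Ccnd2, Ccnd3, Cdk4, Cdk6, Cdkn2a, Cdkn2c, Cdkn1b, Cdkn1c and Rb1. The array carried 23 probes for them among 45281, and 20 of these probes, for 9 of the 10 genes, were kept among the 11927 genes tested. A probe was kept when its detection p, which sets its signal against negative control probes, was below 0.05 on at least 3 arrays. The single probe of Cdk6 was above background on 0 of 13 arrays, so Cdk6 has no tested value.

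Nestin tumors (3 arrays) came from mice with Nestin-creERT2, a tamoxifen-dependent Cre recombinase under sequences of the gene for nestin, a cytoskeletal filament protein that neural stem cells make. NG2 tumors (4 arrays) came from mice with NG2-creERTM, in which sequences of the gene for the NG2 proteoglycan of oligodendrocyte progenitors and pericytes drive a similar Cre. Cre deleted tumor suppressor genes in both models. The labels used here name neither those genes, nor the other alleles, nor the strain and age of the mice. Each model had its own control brain (3 arrays each), taken at the position of the tumors in control mice, whose Cre and floxed alleles the labels do not spell out. The design text counts 5 NG2 tumors, and 4 were analysed here. Tumors were collected once neurological symptoms appeared, each array is labelled as an independent tumor or a biological replicate, and total RNA of the whole tissue was measured on Illumina arrays on 3 slides. Levels are normalized log2 signals, and a change is the mean of the tumors minus the mean of the controls on that scale, given with its standard error. Adjusted p-values are Benjamini-Hochberg values from limma over the 11927 genes, with 0.05 as the threshold.

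D-type cyclins bind and activate the kinases CDK4 and CDK6 in response to growth signals. The active kinases phosphorylate the retinoblastoma protein, the product of Rb1, which then releases E2F transcription factors that switch on genes for DNA replication. INK4 inhibitors, among them the products of Cdkn2a and Cdkn2c, bind CDK4 and CDK6 themselves, whereas CIP/KIP inhibitors such as the products of Cdkn1b and Cdkn1c bind cyclin-kinase complexes. Cdkn2a also encodes p19Arf, which is read in another frame and stabilises p53 through MDM2. Loss of Cdkn2a, gain of Cdk4 and loss of Rb1 are common lesions of human glioblastoma.

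The promoters of 3 of these genes are shown because they carry letters searched for as binding motifs and because these genes rose in both models. They come from a RefSeq promoter table of build GRCm38.p6, which gives 250 bases before and 50 after a start site, written in the direction of the gene. The table held 9 windows for 6 of the 10 genes (Ccnd3, Cdk4, Cdk6, Cdkn1b, Cdkn2a and Cdkn2c). Capitals mark an E2F core, searched on both strands in the form TTGGCGC and in the related forms TTCCCGC and also TTGCCGC and finally TTCGCGC, or the E-box CACGTG, which is its own reverse complement. Both windows of Cdkn2a lie on the minus strand. The first, at chr4:89294570-89294869, holds 1 E2F core that begins 98 bases before the start, and the second, at chr4:89282143-89282442, holds neither motif. The Cdkn2c window at chr4:109666707-109667006, on the minus strand, holds 1 E2F core that begins 25 bases before the start, and a second Cdkn2c window, at chr4:109665323-109665622, holds no E2F core and 1 E-box after the start. The Cdk4 window at chr10:127063285-127063584, on the plus strand, holds 4 E-boxes that begin 172, 118, 98 and 11 bases before the start.
Cdkn2a upstream window: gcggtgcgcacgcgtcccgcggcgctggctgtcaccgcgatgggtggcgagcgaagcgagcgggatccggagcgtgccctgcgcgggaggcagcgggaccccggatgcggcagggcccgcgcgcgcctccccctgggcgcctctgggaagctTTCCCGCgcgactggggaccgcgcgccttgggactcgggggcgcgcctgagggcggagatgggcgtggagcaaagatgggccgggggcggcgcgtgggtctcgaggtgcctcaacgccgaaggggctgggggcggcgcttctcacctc
Cdkn2a downstream window: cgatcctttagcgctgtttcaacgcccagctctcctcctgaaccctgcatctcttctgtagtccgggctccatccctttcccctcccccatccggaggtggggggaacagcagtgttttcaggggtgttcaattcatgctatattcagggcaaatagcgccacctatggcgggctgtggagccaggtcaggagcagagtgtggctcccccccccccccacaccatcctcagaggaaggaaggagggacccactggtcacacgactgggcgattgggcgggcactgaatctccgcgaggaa
Cdkn2c window: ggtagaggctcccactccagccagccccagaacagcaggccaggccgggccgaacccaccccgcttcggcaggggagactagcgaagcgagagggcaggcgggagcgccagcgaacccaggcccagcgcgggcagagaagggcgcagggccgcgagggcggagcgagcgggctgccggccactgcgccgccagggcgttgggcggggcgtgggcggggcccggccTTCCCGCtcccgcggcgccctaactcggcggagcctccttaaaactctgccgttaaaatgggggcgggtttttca
Cdk4 window: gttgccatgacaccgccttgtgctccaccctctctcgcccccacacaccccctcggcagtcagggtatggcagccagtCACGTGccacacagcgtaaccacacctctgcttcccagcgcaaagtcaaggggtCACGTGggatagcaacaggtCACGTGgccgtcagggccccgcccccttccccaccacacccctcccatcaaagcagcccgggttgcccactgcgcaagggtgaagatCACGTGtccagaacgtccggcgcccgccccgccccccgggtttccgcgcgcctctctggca

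An E2F core was present in 9.57% of the 32851 promoters of the table and in 2 of the 9 windows of these genes. Among 19 promoters of 18 genes known as E2F targets, 13 (68.4%) held one. The E-box was present in 7.15% of all promoters and in 3 of the 9 windows, and 4 or more E-boxes in 8 of the 32851. The E-box was chosen after the sequences had been read, and these counts describe letters, not binding.

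In Nestin tumors 8 of the 9 tested genes rose against Nestin control brain and 0 fell. Over all genes 24.4% rose and 21.9% fell in that comparison. In NG2 tumors 7 of the 9 rose and 0 fell, where 26.6% of all genes rose and 24.1% fell. The median change of the 9 genes was 2.73 in Nestin and 3.10 in NG2 tumors, beside 0.06 and 0.09 over all genes. Every tumor lay above every control of its model for 9 of the 9 genes in the Nestin model, where 31.1% of all genes did so, and for 7 of the 9 in the NG2 model, where 27% did. The filter on dim probes bears on Cdkn2a, which was above background on all 7 tumor arrays but on 1 of 6 control arrays and so was kept through the tumors. The 3 D cyclins, Cdk4, Cdkn2a and Cdkn2c rose in both models. Cdkn1b, Cdkn1c and Rb1 each passed the test in 1 model, and the difference between the models was called for none of them. When each array was scaled to its median in place of quantile normalization, 9 of 9 genes rose in the Nestin and 8 of 9 in the NG2 model, but the share of rises among all called genes then went from 52.6% to 72.9% and from 52.4% to 71.8%, with the median of all genes at 0.45 and 0.47.

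**Figure D1:**
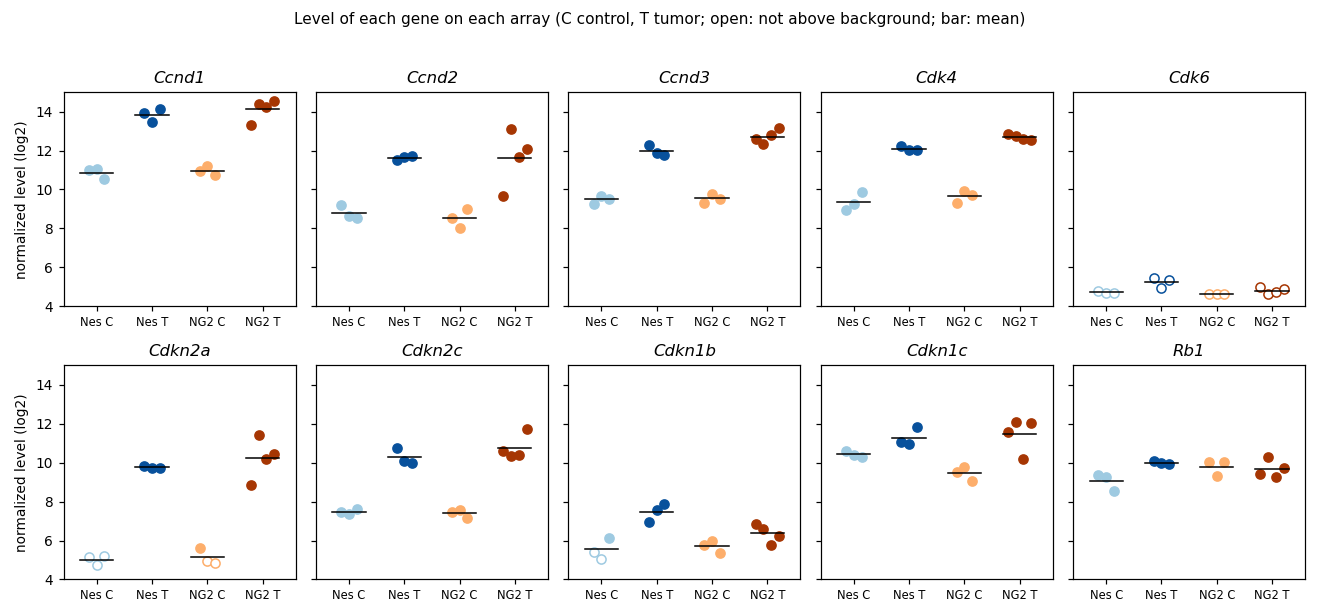
Normalized log2 level of each of the 10 genes on each array, by control (C) and tumor (T) of the Nestin and NG2 models. Filled points were above background, open points were not, and bars are group means. Tumors and controls are separate in both models for the D cyclins, Cdk4, Cdkn2a and Cdkn2c, and Cdk6 is open on all 13 arrays.

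Ccnd1 encodes cyclin D1, a target of mitogen signalling. Its level was 13.92, 13.45 and 14.14 on the Nestin tumor arrays against 11.01, 11.03 and 10.54 in Nestin control, and 13.32, 14.39, 14.21 and 14.52 in NG2 tumors against 10.94, 11.19 and 10.76 in NG2 control. The lowest tumor, NG2 tumor 1, was still above the highest control. The change was 2.98 ± 0.29 (7.88-fold, adjusted p = 2.6e-06, limma) in the Nestin model and 3.15 ± 0.27 (8.85-fold, adjusted p = 4.73e-07) in the NG2 model. Both other probes of Ccnd1 rose too, one by 3.06 and 3.27 and the dimmest by 3.89 ± 0.47 and 4.52 ± 0.44 in the Nestin and NG2 models. A fit of single probes stands behind these last values, in which 21.5% of 23904 probes rose in the Nestin and 25.3% in the NG2 comparison.

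Ccnd2 encodes cyclin D2, which in the developing brain is used by intermediate and adult neural progenitors. It varied more between NG2 tumors than any other gene of the set. The NG2 tumors read 9.65, 13.09, 11.69 and 12.06 and the Nestin tumors 11.51, 11.66 and 11.70, whereas controls read 9.20, 8.66 and 8.51 in the Nestin and 8.53, 8.03 and 9.01 in the NG2 model. The SD was 1.44 among NG2 tumors and 0.10 among Nestin tumors, and NG2 tumor 1 stood closest to the controls. The change was 2.83 ± 0.60 (7.12-fold, adjusted p = 0.00168) and 3.10 ± 0.56 (8.56-fold, adjusted p = 0.000436) in the Nestin and NG2 models. A second probe for the same transcript gave 2.84 and 3.23. A probe designed on the cDNA AK077367 gave 0.86 ± 0.58 (adjusted p = 0.256) in Nestin and 1.73 ± 0.54 (adjusted p = 0.0171) in NG2 tumors. A dim probe on AK007904 gave 0.04 and 0.01. Of its arrays, 0 of 3 were above background in each Nestin group, 2 of 4 in NG2 tumors and 2 of 3 in NG2 control. Near background a change cannot be measured well, and the other probes of Ccnd2 gave positive changes of unequal size.

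Ccnd3 encodes cyclin D3 and was the most even of the D cyclins. Its Nestin tumor arrays read 12.29, 11.88 and 11.75 and its NG2 tumor arrays 12.59, 12.33, 12.80 and 13.16, against 9.27, 9.68 and 9.51 in Nestin and 9.33, 9.79 and 9.52 in NG2 control. The tumors of the 2 models did not overlap, and neither did tumors and controls. The change was 2.48 ± 0.23 (5.59-fold, adjusted p = 2.16e-06) in the Nestin and 3.17 ± 0.22 (9.01-fold, adjusted p = 6.62e-08) in the NG2 model. A second probe, for the transcript NM_001081636, was above background on 1 Nestin and 1 NG2 tumor array and was not kept.

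Cdk4, the catalytic partner of the D cyclins, read 12.23, 12.04 and 12.03 in Nestin tumors and 12.84, 12.76, 12.61 and 12.52 in NG2 tumors. Controls read 8.97, 9.27 and 9.85 in the Nestin and 9.32, 9.91 and 9.70 in the NG2 model. Every tumor lay above every control. The change was 2.73 ± 0.23 (6.65-fold, adjusted p = 7.69e-07) and 3.04 ± 0.21 (8.2-fold, adjusted p = 7.89e-08), and a second, dimmer probe gave 3.33 ± 0.25 and 3.73 ± 0.24. Cdk6, the other kinase of the D cyclins, read 4.94 to 5.46 in Nestin tumors, 4.64 to 4.97 in NG2 tumors and 4.61 to 4.79 in controls. All of these readings were below background on their arrays, so no change in Cdk6 was measurable with this probe.

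Cdkn2a had the largest change of the 9 genes. Its brightest probe, designed on NM_009877, read 9.81, 9.71 and 9.74 in Nestin tumors and 8.86, 11.40, 10.17 and 10.46 in NG2 tumors, while controls read 5.16, 4.73 and 5.18 in the Nestin and 5.64, 4.95 and 4.87 in the NG2 model. The Nestin tumors lay close together (SD 0.05), whereas the NG2 tumors were spread (SD 1.05), with NG2 tumor 1 lowest and NG2 tumor 2 highest. Nestin control arrays were all below background, and the rise was at least 20.2-fold (fitted change 4.73 ± 0.47, adjusted p = 3.56e-06). In the NG2 model, where 1 of 3 control arrays was above background, it was 33.7-fold (5.07 ± 0.44, adjusted p = 5.63e-07).

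RefSeq gives 2 transcripts for Cdkn2a, and by background knowledge NM_009877 encodes p19Arf and NM_001040654 encodes p16Ink4a. A second NM_009877 probe rose at least 21.6-fold in Nestin and at least 30-fold in NG2 tumors. The probe designed on NM_001040654 read 8.24, 8.85 and 8.59 in Nestin tumors and 7.85, 8.84, 8.62 and 8.64 in NG2 tumors, against 4.80 to 5.14 in controls. It was below background on all 6 control arrays and above it on all 7 tumor arrays, and rose at least 8.85-fold and at least 8.66-fold. Its difference between the models was 0.01 ± 0.38 (adjusted p = 0.99 over 23904 probes). Both transcripts share exons, and the position of each probe relative to them was not known here, so signal of the 2 transcripts cannot be told apart.

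**Figure D2:**
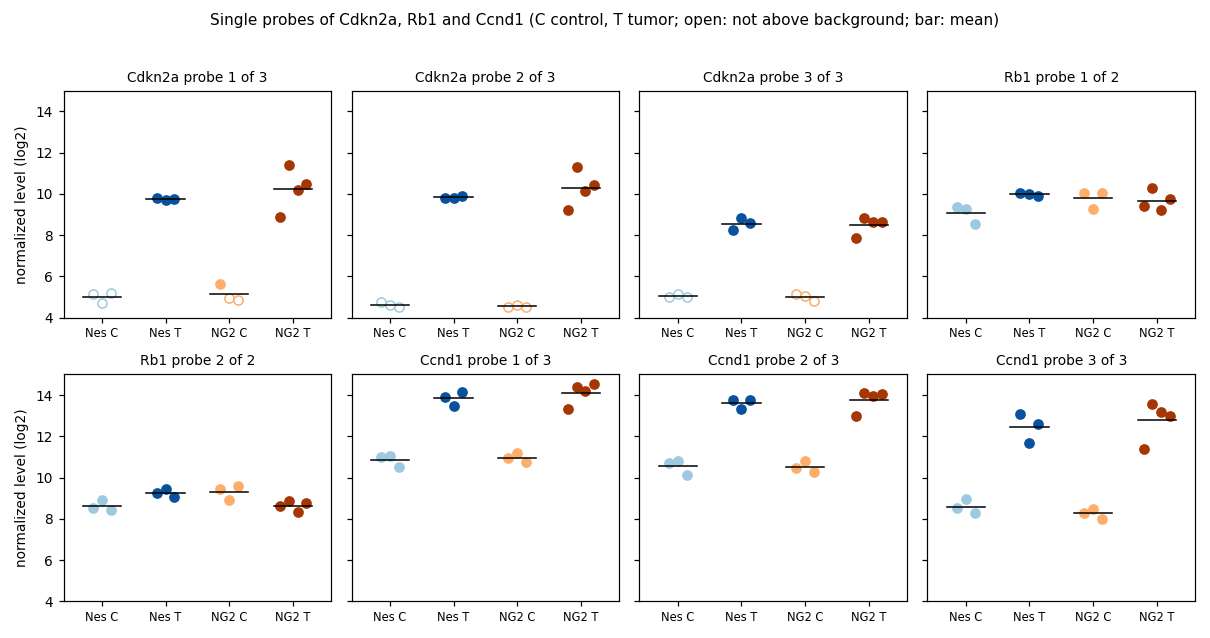
Normalized log2 level of single probes of Cdkn2a, Rb1 and Ccnd1 on each array, by control (C) and tumor (T) of the Nestin and NG2 models, with open points below background and bars at group means. Cdkn2a probe 3, designed on NM_001040654, is below background on all 6 control arrays, and Rb1 probe 2 is higher in tumors of the Nestin model and lower in tumors of the NG2 model.

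Cdkn2c encodes the INK4 inhibitor p18. It read 10.76, 10.07 and 9.96 in Nestin tumors, 10.58, 10.32, 10.38 and 11.72 in NG2 tumors, 7.45, 7.34 and 7.64 in Nestin control and 7.44, 7.59 and 7.14 in NG2 control. Tumors and controls were separate, and the 2 tumor groups overlapped. The change was 2.79 ± 0.34 (6.9-fold, adjusted p = 2.31e-05) and 3.36 ± 0.32 (10.3-fold, adjusted p = 1.38e-06). The other probes gave 4.33 and 5.04 for one designed on AK087461, and 2.13 and 1.71 for a second one on NM_007671. The AK087461 probe was above background on 1 of 3 Nestin control and 0 of 3 NG2 control arrays. It was kept through the tumors, and its NG2 rise was at least 28.1-fold. All 3 probes of Cdkn2c rose in both models.

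The CIP/KIP inhibitors Cdkn1b and Cdkn1c moved less. Cdkn1b, which encodes p27, read 6.97, 7.57 and 7.90 in Nestin tumors against 5.41, 5.06 and 6.15 in Nestin control. In the NG2 model it read 6.85, 6.58, 5.79 and 6.24 in tumors against 5.75, 5.99 and 5.35 in control. The Nestin tumors stood above all other arrays, while NG2 tumor 3 lay among the NG2 controls. The change was 1.94 ± 0.35 (3.83-fold, adjusted p = 0.000502) in the Nestin model, where 1 of 3 control arrays was above background, and 0.67 ± 0.33 (adjusted p = 0.106) in the NG2 model. Without NG2 tumor 3 the NG2 change was 0.85 (adjusted p = 0.048, with a range of 0.032 to 0.311 over 27 alternatives). A second Cdkn1b probe was below background on every array.

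Cdkn1c, which encodes p57 and is an imprinted gene, read 11.08, 10.96 and 11.81 in Nestin tumors against 10.62, 10.39 and 10.27 in Nestin control. In the NG2 model it read 11.57, 12.10, 10.19 and 12.02 in tumors against 9.54, 9.77 and 9.05 in control. NG2 tumor 3 was the lowest of all 7 tumors and lay below every Nestin control. The change was 2.02 ± 0.39 (4.04-fold, adjusted p = 0.000671) in the NG2 model and 0.86 ± 0.42 (adjusted p = 0.106) in the Nestin model. The Nestin value passed the threshold when NG2 tumor 3 was left out of the shared spread (0.86, adjusted p = 0.0184, with a range of 0.0148 to 0.317 over 27 alternatives).

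Rb1 encodes the retinoblastoma protein itself. It read 10.06, 9.99 and 9.91 in Nestin tumors, 9.36, 9.26 and 8.54 in Nestin control, 9.44, 10.27, 9.24 and 9.74 in NG2 tumors, and 10.05, 9.29 and 10.05 in NG2 control. Nestin tumors lay above Nestin controls, and NG2 tumors and controls overlapped. The change was 0.94 ± 0.31 (1.91-fold, adjusted p = 0.0229) in the Nestin model and -0.12 ± 0.29 (adjusted p = 0.744) in the NG2 model, where median scaling turned it to 0.47. The Nestin call was lost in 3 of 27 alternatives: without Nestin control 3 (0.68, adjusted p = 0.111), without Nestin tumor 1 (0.90, adjusted p = 0.0582) and within 1 slide (0.72, adjusted p = 0.063). The lowest adjusted p among the 27 was 0.00367.

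The dimmer Rb1 probe read 9.25, 9.43 and 9.05 in Nestin tumors against 8.52, 8.92 and 8.41 in Nestin control. In the NG2 model it read 8.62, 8.88, 8.33 and 8.76 in tumors against 9.46, 8.91 and 9.59 in control, so every NG2 tumor lay below every NG2 control. In the fit of single probes it gave 0.62 ± 0.25 (adjusted p = 0.0564) in the Nestin model and -0.68 ± 0.23 (adjusted p = 0.0271) in the NG2 model, where 23.1% of probes fell. The brighter probe gave -0.12 ± 0.29 in the NG2 model and was not called. A fall of Rb1 in NG2 tumors was thus called on the dimmer probe alone, and the difference between the probes was not tested.

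The models were then compared directly. Between Nestin and NG2 tumors 2 of the 9 genes differed, where 8.99% of all genes did. Ccnd3 was lower in Nestin tumors by -0.75 ± 0.22 on the log2 scale (adjusted p = 0.0479), and Cdkn1b was higher by 1.11 ± 0.33 (adjusted p = 0.0498). Neither group pair overlapped. Both values stood close to the threshold. The call was lost in 18 of 26 alternatives for Ccnd3, whose adjusted p ran from 0.0232 to 0.671, and in 14 of 26 for Cdkn1b, whose adjusted p ran from 0.0212 to 0.332. No slide held tumors of both models. With slide as a block, which links them through the controls, the differences were -0.81 (adjusted p = 0.671) and 2.15 (adjusted p = 0.332). Cdk4 was lower in every Nestin tumor than in every NG2 tumor, with a difference of -0.58 ± 0.21 that did not pass (adjusted p = 0.109). For the other 6 genes the tumor groups overlapped.

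Between Nestin and NG2 control brain 0 of the 9 genes differed, where 3.47% of all genes did. The difference of the tumor effects, Nestin minus NG2, was called for 0 of the 9, where 3.8% of all genes were called. The fitted difference was -0.17 for Ccnd1 (95% interval -1.01 to 0.67, adjusted p = 0.861), -0.27 for Ccnd2 (-2.05 to 1.51), -0.30 for Cdk4 (-0.97 to 0.37), -0.34 for Cdkn2a (-1.74 to 1.06), -0.58 for Cdkn2c (-1.59 to 0.43) and -0.69 ± 0.32 for Ccnd3 (adjusted p = 0.266). It was larger for the genes called in 1 model alone: 1.27 ± 0.48 for Cdkn1b (adjusted p = 0.165), -1.16 ± 0.57 for Cdkn1c (adjusted p = 0.296) and 1.06 ± 0.42 for Rb1 (adjusted p = 0.191). Without NG2 tumor 3 the value for Cdkn1c was -1.59 and passed (adjusted p = 0.0378, with a range up to 0.54 over 25 alternatives). Their unequal calls therefore do not show that the models differed, and the wide intervals do not show that they were alike. For Cdkn1c and Rb1 the controls stood further apart than the tumors. Cdkn1c averaged 10.43 in Nestin and 9.45 in NG2 control but 11.28 and 11.47 in the tumors. Rb1 averaged 9.05 and 9.79 in the controls but 9.99 and 9.67 in the tumors.

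**Figure D3:**
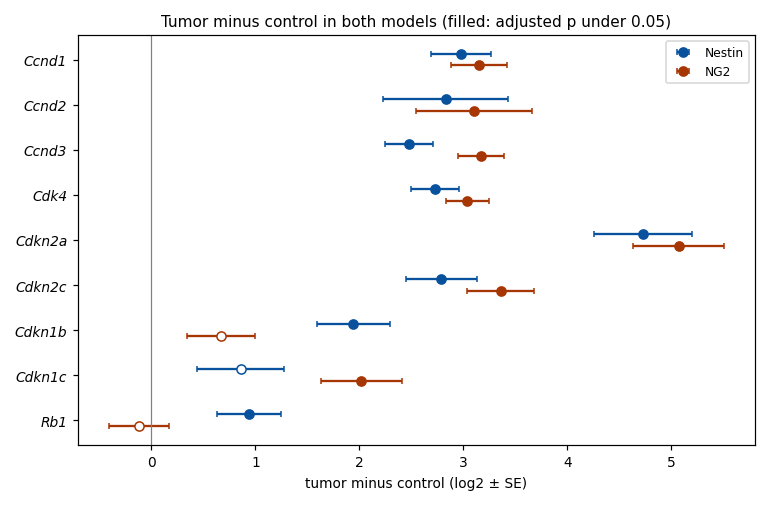
Change of each of the 9 tested genes, tumor minus control in log2, in the Nestin and NG2 models, with bars of 1 standard error. Filled points passed an adjusted p of 0.05. The upper 6 genes lie above 2.4 in both models, and Cdkn1b, Cdkn1c and Rb1 each have 1 open point.

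Changes were also read within slides that carried tumors and controls of 1 model. On slide 1, with 2 Nestin tumors and 2 controls, the D cyclins, Cdk4, Cdkn2a and Cdkn2c were higher in tumors by 2.60 to 4.82. On slide 3, with 1 Nestin tumor and 1 Nestin control, they were higher by 2.18 to 4.56, and on slide 2, with 4 NG2 tumors and 2 controls, by 3.04 to 4.93. Rb1 differed by 0.72, 1.38 and 0 on slides 1, 3 and 2. Cdkn1b differed by 2.04, 1.74 and 0.49, and Cdkn1c by 0.51, 1.54 and 1.82.

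Of the 3 other inhibitors of both families, 2 rose in Nestin tumors and 1 in NG2 tumors, beside 24.4% and 26.6% of all genes. Cdkn2b, which encodes p15 and neighbours Cdkn2a in the genome, read 9.50, 10.19 and 10.73 in Nestin tumors and 9.64, 11.80, 10.51 and 11.24 in NG2 tumors, against 5.05 to 5.42 in controls. It rose by 4.89 ± 0.45 (adjusted p = 1.96e-06) and 5.59 ± 0.43 (adjusted p = 1.68e-07), with 1 of 3 control arrays above background in each model. Cdkn2b was thus kept through the tumors. As with Cdkn2a, NG2 tumor 1 was the lowest and NG2 tumor 2 the highest of the NG2 tumors. Cdkn2d, which encodes the INK4 inhibitor p19, was not called, with changes of 0.20 and -0.01. With median scaling its change passed in the Nestin model (0.77, adjusted p = 0.0416) but not in the NG2 model (0.54, adjusted p = 0.111).

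Cdkn1a encodes p21, a CIP/KIP inhibitor induced by p53. It read 8.74, 8.77 and 9.39 in Nestin tumors and 8.76, 8.42, 9.43 and 8.74 in NG2 tumors. Nestin controls read 7.14, 6.86 and 7.04, and NG2 controls 8.27, 8.80 and 8.61. The tumors of both models thus overlapped, while the control groups did not. The change was 1.95 ± 0.29 (adjusted p = 0.000106) in the Nestin and 0.28 ± 0.27 (adjusted p = 0.418) in the NG2 model. The difference of effects was 1.67 ± 0.39 (adjusted p = 0.0319), and between the controls Cdkn1a was lower in the Nestin model by -1.54 ± 0.29 (adjusted p = 0.00731), a call that was lost with slide as a block (adjusted p = 0.311, the highest of 26 alternatives). The difference of effects ran from 1.04 to 1.87 and its adjusted p from 0.0119 to 0.0942 over 25 alternatives, and it missed the threshold in 11 of them, among them slide as a block and leaving out any 1 Nestin control. Median scaling gave a change of 0.82 in the NG2 model that passed (adjusted p = 0.0234), so whether Cdkn1a rose there depends on the scaling.

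E2f1 showed the reverse order in the controls. It read 9.76, 9.59 and 9.46 in Nestin and 8.24, 8.29 and 8.28 in NG2 control, and 8.90 to 9.69 in Nestin and 8.91 to 9.71 in NG2 tumors. It rose in NG2 tumors by 0.97 ± 0.24 (adjusted p = 0.00416), and its Nestin change was -0.23 (adjusted p = 0.503), which median scaling turned to 0.35. The controls differed by 1.33 ± 0.26 (adjusted p = 0.00886), a call that was lost with slide as a block and without Nestin control 1 (highest adjusted p of 26 alternatives 0.285). The difference of effects was -1.20 (adjusted p = 0.0766).

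Among 9 measured E2F and DP factors 5 rose and 1 fell in Nestin tumors, where 24.4% of all genes rose and 21.9% fell. In NG2 tumors 6 rose and 0 fell, where 26.6% of all genes rose and 24.1% fell. The count includes E2f6 in Nestin tumors (0.63, adjusted p = 0.0305), whose call was lost in 7 of 27 alternatives. It also includes E2f7 in NG2 tumors (at least 1.21-fold, adjusted p = 0.0104), which was below background on all control arrays, was kept through the tumors and lost its call with slide as a block and within 1 slide. E2f2 rose by 3.10 and 3.62, E2f3 by 1.92 and 2.04 and E2f5 by 1.87 and 1.44 in the Nestin and NG2 models. Tfdp1, a dimer partner of E2Fs, rose by 1.12 and 1.57. Tfdp2 was lower in Nestin tumors by -0.75 (adjusted p = 0.0336) and was not called in NG2 tumors (-0.25). The Tfdp2 call was lost in 9 of 27 alternatives, among them median scaling (-0.20) and leaving out any 1 Nestin control. Of the other pocket proteins, Rbl1, which encodes p107, rose by 2.96 ± 0.26 and 2.98 ± 0.25. The Rbl1 probe read 4.68, 4.78 and 4.79 in Nestin control, under the lowest signal above background there (5.37 to 5.46). NG2 control 2 (4.87 against 5.44) was below background too, so the size of these rises was not well measured. Rbl2, which encodes p130, was not called (-0.47 and -0.30).

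Late G1 is driven by CDK2 with cyclin E. Cdk2 read 10.98, 10.87 and 10.45 in Nestin tumors and 12.12, 11.56, 12.07 and 12.34 in NG2 tumors, against 7.14 to 7.65 in controls. Every NG2 tumor exceeded every Nestin tumor. It rose by 3.41 ± 0.24 (adjusted p = 1.83e-07) in the Nestin and 4.56 ± 0.23 (adjusted p = 3.97e-09) in the NG2 model, with a difference between the tumors of -1.26 ± 0.23 (adjusted p = 0.00459) and a difference of effects of -1.15 (adjusted p = 0.0723). With slide as a block the difference between the tumors no longer passed for Cdk2 (highest adjusted p of 26 alternatives 0.369) or for Ccne2 (0.452). Ccne2 rose by 0.97 (adjusted p = 0.00739) and 2.19 (adjusted p = 5.94e-06) and was also lower in Nestin than in NG2 tumors (-1.28 ± 0.24, adjusted p = 0.00613). Ccne1 was not called in either model (0.24 and 0.53), and passed in both with median scaling (0.72 and 0.98). The phosphatase gene Cdc25a, whose product activates these kinases, rose by 1.82 and 2.11. Of the CDK-activating kinase, Ccnh rose in Nestin tumors (0.98, adjusted p = 0.00713) and Mnat1 in NG2 tumors (1.18, adjusted p = 0.00199). Ccnh in NG2 tumors (0.36) and Mnat1 in Nestin tumors (0.2) were not called. The difference of effects was called for neither gene.

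**Figure D4:**
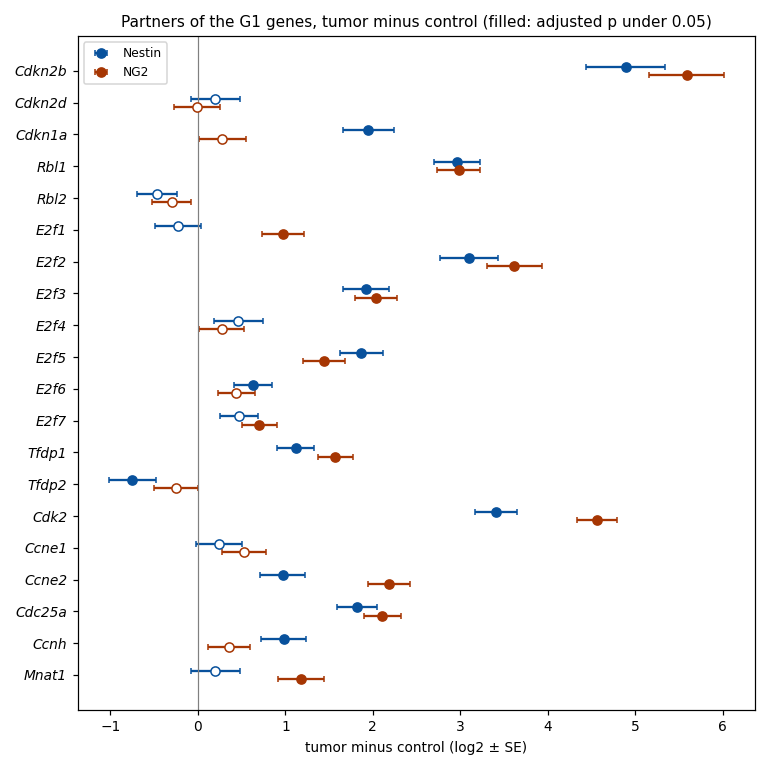
Change of 20 partners of the G1 genes, tumor minus control in log2, in the Nestin and NG2 models, with bars of 1 standard error and filled points for an adjusted p under 0.05. Cdkn2b and Cdk2 lie furthest to the right in both models, and Cdkn1a and E2f1 are each filled in 1 model alone.

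Of 20 listed E2F target genes 17 were measured, and 17 of 17 rose in both models, beside 24.4% of all genes in the Nestin and 26.6% in the NG2 model, with a median change of 3.13 in Nestin and 3.92 in NG2 tumors. Of these, Pcna, Rrm2, Tk1, Mybl2 and Cdk1 were below background on all control arrays and were kept through the tumors. Cdk1, the kinase of mitotic entry, rose at least 43.4-fold and at least 59.9-fold, Tyms, which makes thymidylate, by 4.84 ± 0.26 and 4.72 ± 0.24, and Tk1, thymidine kinase, at least 17.2-fold and at least 24.6-fold. Their rise differed between the models for 2 of 17 genes, beside 3.8% of all genes: Cdc6 by -1.59 (adjusted p = 0.0425) and Mcm3 by -1.91 (adjusted p = 0.0178), both with the larger rise in NG2 tumors. The Cdc6 value missed the threshold in 14 of 25 alternatives (adjusted p 0.0253 to 0.114) and the Mcm3 value in 6 of 25 (0.00451 to 0.0831), slide as a block among them for both. Both encode factors that license replication origins.

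Genes that act on these proteins from outside were called in both directions. Over all genes 24.4% rose and 21.9% fell in the Nestin comparison, and 26.6% rose and 24.1% fell in the NG2 comparison. Of 4 measured ubiquitin ligase genes that act on p27 or G1 cyclins, Skp2 (0.73 and 0.88) and Fbxo4 (1.93 and 1.83) rose and Fbxw7 fell by -2.25 ± 0.23 and -2.54 ± 0.21 in the Nestin and NG2 models. The Nestin call of Skp2 was lost in 7 of 27 alternatives (adjusted p 0.0121 to 0.11). Skp2 is the substrate receptor for p27, Fbxo4 has been described as one for cyclin D1, and Fbxw7 is one for cyclin E. Of 4 measured factors upstream of the D cyclins 3 rose in both models. Myc was below background on all control arrays, was kept through the tumors and rose at least 4.09-fold and at least 7.01-fold. Ets1 rose by 1.52 and 2.50. Of 3 measured subunits of the MuvB complex 1, Lin54, rose (1.38 and 1.21). Mdm2 and Mdm4, regulators of p53, were not called in either model.

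The genes whose profile over the 13 arrays was closest to each member were found by the root mean square difference of log2 levels, each gene centred on its own mean. Closest to Ccnd1 were Kif18a (0.28) and Pdlim5 (0.31), to Ccnd3 Mtbp (0.23) and Tcf19 (0.24), and to Cdk4 Tpm4 and Mcm7 (0.28 each). Closest to Cdkn2a were Chaf1b (0.34) and Mlkl (0.38), and to Cdkn2c Foxm1 (0.27) and Tcf19 (0.29). Ccnd2 had no neighbour nearer than Ltbr and Tph2 (0.51 each). Cdkn1b was closest to Fam220a (0.31) and Rnf182 (0.35), and Cdkn1c to Pcgf5 (0.41) and Slc25a30 (0.46). Rb1 varied by an SD under 0.5 and was not compared.

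Tumors and controls also differed in the RNA levels of marker genes for several cell types and in raw signal. Beside the counts below, 24.4% of all genes rose and 21.9% fell in Nestin tumors. In NG2 tumors 26.6% of all genes rose and 24.1% fell. The summed level of 6 neuronal marker genes was 61100 to 70300 in controls, 4970 to 10800 in Nestin tumors and 1110 to 2910 in NG2 tumors, and 6 of 6 fell in both models. The sum of 6 mitosis genes was 247 to 387 in controls, 8200 to 13900 in Nestin tumors and 11500 to 17700 in NG2 tumors. In both models 6 of 6 rose. Of these, Aurkb was below background on all control arrays and was kept through the tumors. The sum of 7 microglia and macrophage genes was 3200 to 5280 in controls. It was 9490 to 23800 in Nestin tumors and 6510 to 13200 in NG2 tumors. Of the 7 genes, 4 rose in Nestin tumors, and 3 rose and 1 fell in NG2 tumors. The sum of 6 oligodendrocyte progenitor genes was 35700 to 50200 in NG2 tumors, 10400 to 30300 in Nestin tumors and 7940 to 13100 in controls, with 6 of 6 higher in the NG2 and 4 of 6 in the Nestin model. The sum of 5 myelin genes was 28200 to 53200 in controls, 4420 to 10500 in Nestin tumors and 2980 to 20900 in NG2 tumors, with 5 of 5 and 4 of 5 lower. Of 6 astrocyte genes 1 rose and 1 fell in Nestin tumors and 4 fell in NG2 tumors, with sums of 36100 to 47100 in controls, 30900 to 70100 in Nestin tumors and 20400 to 28900 in NG2 tumors. Of 4 pericyte and smooth muscle genes 1 fell in Nestin tumors and 3 rose in NG2 tumors, with sums of 1130 to 1780 in controls, 1290 to 2520 in Nestin tumors and 2270 to 4180 in NG2 tumors. Of 2 measured lymphocyte genes, Cd3e and Cd79b, 0 were called, and both were below background on all NG2 tumor arrays. In these bulk samples a change in the share of a cell type and a change in RNA per cell cannot be told apart, and the part of these markers in the changes of the G1 genes was not tested. Single arrays also stood apart: the choroid plexus sum was 24400 in Nestin tumor 3 and the erythrocyte sum 27500 in Nestin tumor 1. The median raw signal was 175.7 to 209.1 on tumor arrays and 116.9 to 142.1 on control arrays, while the share of probes above background was 43.46% to 47.52% on all arrays.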

How the data were processed

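Whole-tissue RNA was measured on 13 single-colour Illumina mouse arrays. Per the file headers, the authors' main table holds raw bead intensity for every probe. A detection p-value stands beside each intensity in the same deposited table. They also deposited a processed table, taken as log2 values from its range and used as an alternative only. No source used here states how that table was normalized, or whether the intensities had background subtracted. Groups were taken from the labels and slides from the array identifiers.

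Intensities were corrected and normalized with neqc of limma 3.58.1 in R 4.3.3, with background inferred from the detection p-values, an offset of 16, quantile normalization and log2. The detection filter (p under 0.05 on 3 or more arrays) kept 23904 of 45281 probes. The platform's probe table gave 1 symbol to 32093 probes, several to 16, which were not used, and none to 13172. By Entrez number, 32035 probes found their gene in RefSeq's table for GRCm38.p6, used for names alone. The probe of highest mean signal stood for a gene (11927 genes, 4680 of them with several kept probes), and other probes of the 10 genes were fitted with all 23904 probes. A linear model with 1 mean per group over the 13 arrays, with 9 residual and 4.67 prior degrees of freedom and an intensity trend, gave the 5 comparisons, adjusted by the Benjamini-Hochberg method. A gene with all of its probes below background on every array of a group has a lower bound for its fold. The bound sets the bright mean against the higher of the control's own signal and the lowest signal above background on each array. For single probes of the 10 genes, that probe alone decided. The fit was tested on simulated data. The number of arrays limits the precision.

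The genes named are the 10 members, their listed partners, the largest changes of other lists and the nearest profiles. The members and lists were chosen with earlier results of these data known. The alternatives changed background correction, normalization, probe filter, probe choice, slide, replicate block, moderation and samples, or used the authors' table.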

Additional observations from a re-analysis of the deposited data

Results flagged for a closer look

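One array stood far from its group. On a second probe of Ccnd1, NG2 tumor 1 read 12.97, below the other 3 NG2 tumors, whose gap to it took 0.858 of the range of the group, above the 95% critical value of Dixon's test. Such a test was run on 20 probes of these genes, and chance alone marks about 1 group in 20. On the brightest probes the same tumor was the lowest of the 4 for Ccnd1, Ccnd2 and Cdkn2a. It was the highest for Cdk4 (12.84) and Cdkn1b (6.85), and lay in between for Ccnd3, Cdkn2c, Cdkn1c and Rb1. Ccnd1 passed the threshold in the NG2 model without this tumor too.

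The dimmer probe of Rb1 was higher in every Nestin tumor than in every Nestin control and lower in every NG2 tumor than in every NG2 control. The difference of the effects was 1.3 ± 0.34 on the log2 scale, and in the fit of all 23904 probes it missed the threshold (adjusted p = 0.0552). On the brighter probe the same difference was 1.06 ± 0.42 (adjusted p = 0.206).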

How the results depend on the processing

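The rises of Ccnd1, Ccnd2, Ccnd3, Cdk4, Cdkn2a and Cdkn2c kept their direction and call in both models under all 27 alternatives, as did Cdkn1b in the Nestin and Cdkn1c in the NG2 model. These alternatives are not independent. Leaving out an array of the other model bears on a change only through filter, normalization and shared spread. The authors' processed table gave the same median changes of all genes as the main fit, 0.06 and 0.09. The count of genes called was 7 to 9 in the Nestin and 7 to 8 in the NG2 comparison. Between the tumors it fell from 2 to 1 with cyclic loess, median scaling, no filter on dim probes and no intensity trend, to 0 with slide as a block, the replicate block and only the groups compared, and ran from 0 to 2 with 1 array left out. Between the controls it was 1 with only the groups compared. In the difference of effects it ran from 0 to 1 with 1 array left out. Rb1 in the NG2 model turned from -0.12 to 0.47 with median scaling and 0 with slide as a block or within 1 slide, and ran from -0.38 to 0.02 with 1 array left out. The difference of effects of Ccnd1 turned to 0.09 with median scaling and ran from -0.45 to 0.02 with 1 array left out, that of Ccnd2 from -0.93 to 0.22 and that of Cdkn2a from -0.80 to 0.05. Apart from designs with fewer arrays, the cause was not tested. Replicate numbers gave no sign of pairing the samples. Deviations of same-numbered arrays correlated at -0.06 to 0.04 over 11927 genes, and those of other numbers at -0.09 to 0.11. With 3 or 4 arrays per group this check is weak. The replicate block took the calls of Ccnd3 (-0.60, adjusted p = 0.159) and Cdkn1b (1.07, adjusted p = 0.143) between the tumors and changed no other call of these 9 genes. Signals near background, as for Cdk6 and the Cdkn2a controls, limit what can be measured.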
